A study of Danio rerio with 6 samples.

Results

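The 10 genes described here encode transcription factors and were grouped as blastema factors. Of these, msx1a, msx1b, msx2b and msx3 are Msx homeobox genes, and prrx1a and prrx1b are paired-related homeobox genes. The basic helix-loop-helix genes are twist1a, twist1b and hand2, and tbx18 is a T-box gene. All 10 were chosen by name from a deposited count table of 31901 rows. All 10 names were present, each on 1 row, and 9 of them passed the filter on low counts that left 18541 rows for testing. The gene that did not pass was hand2.

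After a zebrafish fin is cut, cells under the wound epidermis lose parts of their mature character and gather into a blastema, the proliferating mass that rebuilds the rays and the tissue between them. Msx proteins are homeodomain repressors. Some Msx genes, though not all, are known as blastema markers in fish fins, and Msx genes respond to Bmp signals in many tissues. Prrx1 and Twist1 mark undifferentiated limb and fin mesenchyme, and Twist and Hand proteins bind DNA in dimers with E proteins. In mouse limb buds and zebrafish pectoral fins, Hand2 acts upstream of Sonic hedgehog. Whether these genes depend on Hedgehog signalling in the regenerating caudal fin is one question that a comparison of inhibited and control regenerates bears on.

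RNA was sequenced from caudal fin regenerates of shha:GFP zebrafish, a reporter line for the ligand gene shha that both groups carried. The BMS group (3 libraries, replicates 2, 3 and 4) had received 40 mg/kg of the Smoothened inhibitor BMS-833923 by injection into the body cavity, in a buffer of PEG-400, propylene glycol and Tween-80. The vehicle group (3 libraries, replicates 2, 3 and 4) had received that buffer alone. Fins were taken at 4 days after amputation, 5 hours after the injection, and each library pooled the tissue outward from the GFP domains of 4 regenerates. The labels used here give no age. Those of BMS replicates 3 and 4 number the compound differently from replicate 2, but the design text has BMS-833923 alone, and all 3 were treated as that compound. Because nothing ties a library to its own clutch or day, the p-values cover variation among pools and nothing wider. In the counts, libraries of the same number varied together across the groups, as described under processing, and the main test does not model this.

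Library totals ran from 16978747 to 22659275 counts, and levels are given as CPM, the count relative to the library size after scaling by edgeR's TMM method. BMS replicate 2 stood apart: its TMM factor was 0.78, against 0.95 to 1.12 in the other libraries, and genes with rpl or rps names took 8.72% of its counts, against 3.91% to 6.49%. Of the direct Hedgehog target genes, gli1 was at 14.7, 25.2 and 16.8 CPM in BMS, against 37.5, 40.9 and 27.5 CPM in vehicle. The level of hhip was 1.97, 3.99 and 4.16 CPM in BMS, against 15.1, 13.1 and 9.4 CPM in vehicle, so for both genes every BMS library lay below every vehicle library, as in 1.76% of all rows. The level of ptch1 was 12.9, 25.5 and 12.6 CPM in BMS, against 31.7, 35.6 and 22.6 CPM in vehicle, and its groups overlapped. None of the 35 fin mesenchyme and blastema genes on a fixed list was at 0 in any library, while 7 muscle genes together summed to between 1.43 and 4.24 CPM in BMS and between 1.11 and 2.29 CPM in vehicle.

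None of the 9 testable genes passed the test after BMS-833923. In the edgeR quasi-likelihood fit with Benjamini-Hochberg adjustment, the adjusted p of each of the 9 was 1. The test called 0% of the 18541 rows, with 198 rows, or 1.07%, at an unadjusted p under 0.05, and none of the 9 genes was among them. If no row changed, a share near 0.05 would be foreseen, so the p-values of this fit ran high. It did not call the Hedgehog target hhip either, at -1.88 ± 0.36 (SE). Failing this test is therefore no evidence that a gene did not change. The log2 fold changes of BMS over vehicle ran from -0.54 for tbx18 to 0.46 for prrx1a, with a median of -0.01, beside a median of 0.01 over all rows. Of the 9 genes, 5 had negative values, as had 48.5% of all rows. In each of the 9 the BMS and vehicle levels overlapped. Groups did not overlap in 1.76% of rows with BMS lower and in 2.16% with BMS higher. In bulk tissue, fewer cells of a type and less RNA per cell cannot be told apart.

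**Figure D1:**
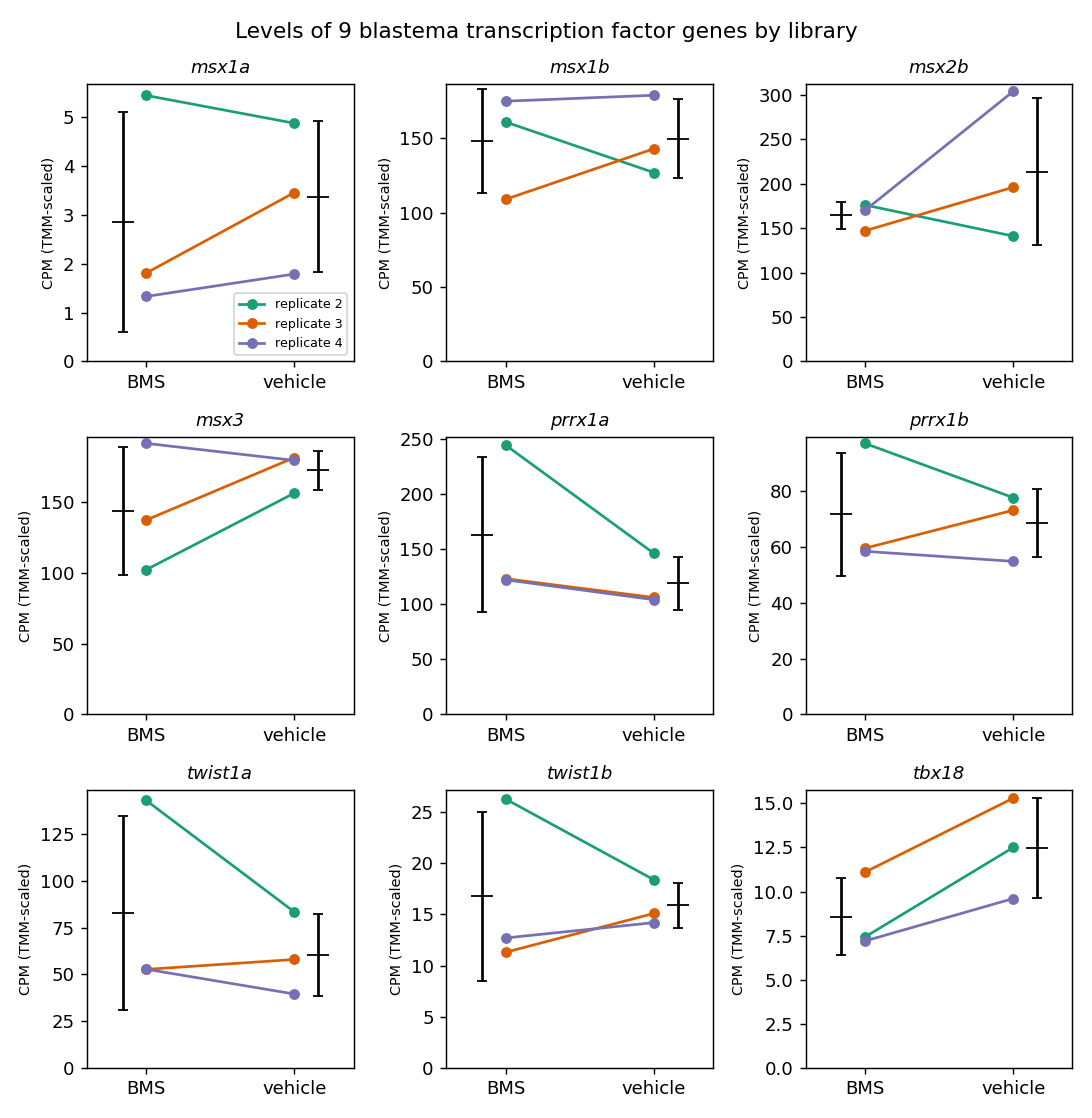
Level of each of the 9 genes that passed the filter, in CPM on a linear axis from 0, in BMS (left) and vehicle (right) libraries. Coloured points are libraries, lines join libraries of the same replicate number, and black marks give the mean and SD of 3 libraries. The BMS and vehicle points overlap for every gene plotted, and BMS replicate 2 is the highest point for prrx1a, prrx1b, twist1a, twist1b and msx1a.

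Among the Msx genes, msx1b, a marker of the distal blastema in fish fins, was the one with the smallest difference. Its level was 161, 109 and 175 CPM in BMS replicates 2, 3 and 4, against 127, 143 and 179 CPM in vehicle replicates 2, 3 and 4. Both groups covered nearly the same span, with replicate 4 the highest library in each. The group means were 148 ± 34.5 CPM in BMS and 149 ± 26.4 CPM in vehicle (SD, n = 3 each), and the log2 fold change was -0.01 ± 0.29 (SE), with a 95% interval from -0.67 to 0.64.

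The level of msx2b was 176, 147 and 170 CPM in BMS, against 141, 196 and 304 CPM in vehicle, for replicates 2, 3 and 4 in that order (the order used for every gene below). The BMS libraries lay close together, and vehicle replicate 4 stood well above all others. The means were 164 ± 15.2 CPM in BMS and 214 ± 82.7 CPM in vehicle. The log2 fold change was -0.38 ± 0.33 (95% interval -1.11 to 0.35), and it ran from -0.61 without vehicle replicate 2 to -0.04 without vehicle replicate 4. With both libraries of number 2 left out, the edgeR fit with the replicate number as a block gave -0.61 (interval -0.96 to -0.25, adjusted p = 0.317). That fit gave -0.29 (interval -0.77 to 0.19) without number 3 and -0.05 (interval -0.65 to 0.55) without number 4. With all libraries it gave -0.31 (interval -0.83 to 0.20), so only the omission of number 2 left an interval clear of 0. Each fit without a number kept only 2 same-number pairs, so its interval leaned heavily on variation estimated across rows. Within same-number pairs, BMS over vehicle was 0.32, -0.42 and -0.83 on the log2 scale, so the sign differed between pairs.

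The level of msx3, which also marks the distal blastema, was 102, 137 and 191 CPM in BMS, against 156, 181 and 179 CPM in vehicle. BMS replicate 2 was the lowest library and BMS replicate 4 the highest, so the BMS values spanned all of the vehicle values. The log2 fold change was -0.26 ± 0.30 (95% interval -0.94 to 0.41), and it ran from -0.53 without BMS replicate 4 to -0.05 without BMS replicate 2.

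A far weaker signal came from msx1a, with counts of 72, 38 and 33 in BMS, against 100, 82 and 45 in vehicle. Its levels were 5.45, 1.81 and 1.33 CPM in BMS, against 4.88, 3.46 and 1.79 CPM in vehicle. In both groups replicate 2 was highest and replicate 4 lowest, and the difference between numbers was larger than that between groups. The log2 fold change was -0.27 ± 0.56 (95% interval -1.52 to 0.99). Leaving out BMS replicate 2 moved it to -1.10 (interval -2.07 to -0.12), still with an adjusted p of 1 in the edgeR test. That omission kept vehicle replicate 2, the highest vehicle library. With both libraries of number 2 left out, the edgeR fit with the replicate number as a block gave -0.67 (interval -1.41 to 0.07). Without number 3 that fit gave -0.14, and without number 4 it gave -0.37.

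Summed over the 4 Msx genes, the level was 444, 396 and 537 CPM in BMS, against 429, 524 and 662 CPM in vehicle. The sum was lower in BMS in pairs 3 and 4 and higher in pair 2, and the groups overlapped. In which cells of the pools each Msx gene was expressed was not tested, so the sum may mix tissues. A remaining Msx gene, msx2a, was on a fixed list of related factors and is named for its family, after its values were seen. It was at 12, 31.4 and 37.1 CPM in BMS, against 18.9, 36 and 80.7 CPM in vehicle, and did not pass (log2 fold change -0.75, edgeR adjusted p = 1). Like msx2b it was highest in vehicle replicate 4. Unlike msx2b it was lower in BMS in every same-number pair, as were 17.5% of all rows. With the replicate number as a block, edgeR gave msx2a -0.66 ± 0.20 (unadjusted p = 0.0105, adjusted p = 0.629).

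The largest positive value among the 9 was that of prrx1a, one of a pair of paralogues of the mesenchymal homeobox gene Prrx1 of mammals. Its level was 244, 123 and 122 CPM in BMS, against 146, 106 and 104 CPM in vehicle. BMS replicate 2 was far above the rest, and vehicle replicate 2 lay above the other vehicle and BMS libraries. The means were 163 ± 70.3 CPM in BMS and 119 ± 23.4 CPM in vehicle, and the log2 fold change was 0.46 ± 0.34 (95% interval -0.31 to 1.23). BMS was higher in 3 of 3 same-number pairs, by 0.75, 0.21 and 0.24 log2 units. Such agreement was found in 14.1% of all rows.

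Its paralogue prrx1b was at 97, 59.5 and 58.4 CPM in BMS, against 77.6, 73.1 and 54.8 CPM in vehicle. Replicate 2 was again the highest library of each group. The log2 fold change was 0.06 ± 0.30 (95% interval -0.62 to 0.74), and the pairs differed in sign, at 0.32, -0.30 and 0.09.

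The level of twist1a, which encodes a basic helix-loop-helix factor of mesenchymal progenitors, was 143, 52.6 and 52.7 CPM in BMS, against 83.3, 57.9 and 39.4 CPM in vehicle. This gene had a spread of 3.62-fold over the 6 libraries, against 1.64-fold for msx1b. The log2 fold change was 0.45 ± 0.45 (95% interval -0.54 to 1.45), and the pairs gave 0.77, -0.14 and 0.42.

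The level of twist1b was 26.3, 11.3 and 12.7 CPM in BMS, against 18.4, 15.1 and 14.2 CPM in vehicle. Replicate 2 was highest in both groups, and the remaining BMS libraries lay below all vehicle libraries. The log2 fold change was 0.07 ± 0.36 (95% interval -0.73 to 0.87), with pairs at 0.51, -0.43 and -0.16. The RefSeq table lists the name Twist1b as a synonym of twist1a and Twist1a as a synonym of twist1b, so which locus stands behind each row follows the authors' annotation, which the sources used here do not name.

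The other Twist genes, twist2 and twist3, were named for their family after their values were seen. The level of twist2 was 88.9, 57.8 and 58.4 CPM in BMS, against 63.9, 72.2 and 53.2 CPM in vehicle. That of twist3 was 146, 38.3 and 21.9 CPM in BMS, against 90.6, 65.1 and 29.4 CPM in vehicle. Neither passed (edgeR adjusted p = 1 for each), and both had their highest value in BMS replicate 2.

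The size of the prrx1 and twist1 values depended on BMS replicate 2. Without that library alone the log2 fold change was 0.06 for prrx1a, -0.20 for prrx1b, -0.18 for twist1a and -0.40 for twist1b. Vehicle replicate 2 was also the highest vehicle library for these genes. Both libraries of number 2 were then left out of the edgeR fit with the replicate number as a block. It gave 0.25 for prrx1a, -0.08 for prrx1b, 0.16 for twist1a and -0.27 for twist1b. Without both libraries of number 3 the values, in that order, were 0.46, 0.18, 0.57 and 0.15. Without those of number 4 they were 0.48, 0.01, 0.32 and 0.05. For twist1a the interval without number 3 was 0.12 to 1.01 (edgeR adjusted p = 0.169), from a fit that kept only 2 same-number pairs.

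Markers of other cell types did not move as one in BMS replicate 2. The 12 matched osteoblast markers summed to 13300 CPM there, against 7950 and 9100 CPM in the other BMS libraries and 8970 to 9770 CPM in vehicle, but sparc (7560 CPM) and col10a1a (5320 CPM) made up nearly all of that sum. Of 11 tested osteoblast markers, 5 had their highest level in BMS replicate 2 and 4 had their lowest, among them the transcription factor genes runx2a, runx2b and sp7. The 10 matched basal epidermis markers summed to 29900 CPM there, against 15500 and 21200 CPM in the other BMS libraries and 17600 to 24600 CPM in vehicle, with krt5 alone at 25200 CPM. Of these 10 markers, 3 were highest in BMS replicate 2 and 0 lowest. The 9 superficial and intermediate epidermis markers summed to 12800 CPM there, against 7790 and 9770 CPM in the other BMS libraries and 6680 to 9040 CPM in vehicle. Of these, 5 were highest in BMS replicate 2 and 1, evpla, was lowest. Of 9 tested immune markers, 5 were highest and 2 lowest there. Of the 34 tested genes of the fin mesenchyme and blastema list, 10 were highest and 8 lowest. Of the 22 tested genes of the list of related factors, 6 were highest and 3 lowest. Of the 9 tested transcription factor genes described here, 5 were highest and 1 lowest in that library. The share of all rows that were highest or lowest in this library is not given here, so these counts have no background. None of the matched osteoblast or epidermis markers was at 0 in BMS replicate 2. The part of cell composition or RNA quality in the prrx1 and twist1 values was not tested.

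The lowest value among the 9 was that of tbx18, a T-box repressor known in mice from somite boundaries and mural cells of vessels. Its level was 7.42, 11.1 and 7.19 CPM in BMS, against 12.5, 15.3 and 9.6 CPM in vehicle, from 98, 233 and 178 counts in BMS and 257, 363 and 242 counts in vehicle. The highest BMS library lay above the lowest vehicle library, so the groups overlapped, yet BMS was lower in 3 of 3 same-number pairs, by -0.76, -0.47 and -0.42 log2 units. This was so for 17.5% of all rows. The means were 8.56 ± 2.18 CPM in BMS and 12.5 ± 2.86 CPM in vehicle, and the log2 fold change was -0.54 ± 0.31 (95% interval -1.24 to 0.15). It stayed between -0.78 and -0.37 with any 1 library left out. The summed level of 9 endothelial markers, none of them at 0 in any library, was 67.7 to 93.8 CPM in BMS and 63.5 to 96.2 CPM in vehicle. No list of mural cell markers was used, so the share of those cells was not tested.

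Counts of hand2 were 0, 2 and 0 in BMS, against 2, 3 and 0 in vehicle. All were at or under the 3 counts per library that a count of 0 allows, which is 0.132 to 0.177 CPM of the total count and covers counting error only. No fold change is given, and a difference in hand2 was not detectable at this depth.

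A fit with the replicate number as a block narrowed the intervals and again left no gene of the 9 past the threshold. In that fit 6 of the 9 values were negative, as were 52.2% of all rows. There edgeR's quasi-likelihood test called 0% of 18541 rows, with 7.05% at an unadjusted p under 0.05. The genes tbx18 (log2 fold change -0.54 ± 0.19, 95% interval -0.96 to -0.12, unadjusted p = 0.0176) and prrx1a (0.40 ± 0.17, interval 0.01 to 0.79, unadjusted p = 0.0465) were among those rows, and their edgeR adjusted p was 0.655 and 0.687. With DESeq2 and the block, which called 0.482% of 14946 rows, none of the 9 genes passed (adjusted p = 0.748 for tbx18 and 0.794 for prrx1a). For msx1b the blocked interval ran from -0.44 to 0.39, for prrx1b from -0.35 to 0.42 and for twist1b from -0.51 to 0.47.

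**Figure D2:**
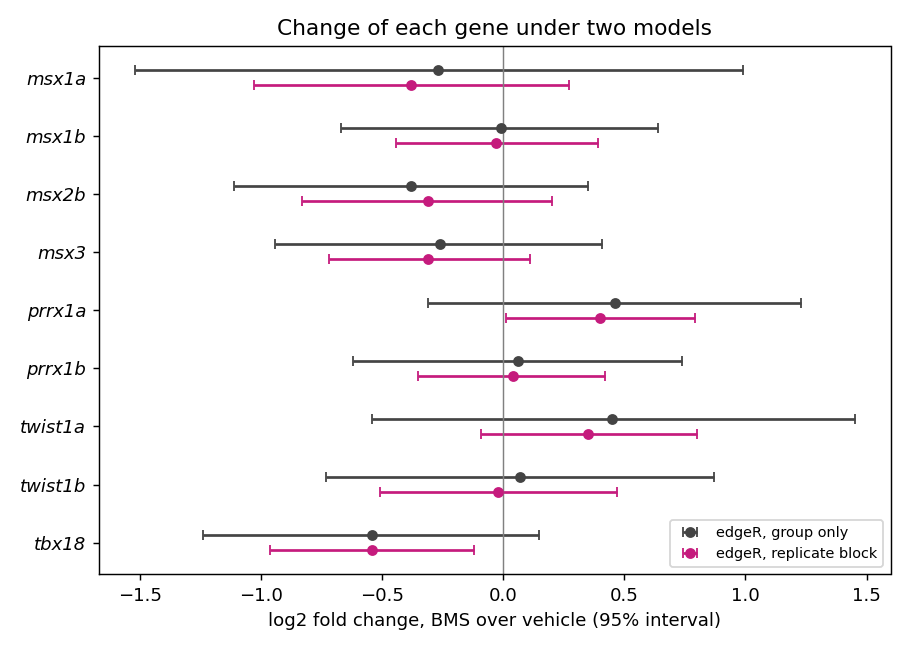
Log2 fold change of BMS over vehicle for each of the 9 genes, with 95% intervals, from edgeR fits with group only (grey) and with the replicate number as a block (pink). With group only all 9 intervals include 0. With the block those of prrx1a (0.01 to 0.79) and tbx18 (-0.96 to -0.12) do not, before any adjustment for the number of rows.

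Over the 6 libraries the genes fell into unlike patterns. In BMS replicate 2, prrx1a, prrx1b, twist1a, twist1b and msx1a lay 0.86, 0.50, 1.13, 0.75 and 1.01 log2 units above their own means over the libraries, and in vehicle replicate 2 they lay 0.11, 0.18, 0.36, 0.23 and 0.85 above. In the same BMS library msx3 and tbx18 lay at -0.60 and -0.45, below their means, and msx2b at -0.06. In vehicle replicate 4, msx2b was at 0.73 while twist1a and msx1a were at -0.72 and -0.60. Within the Msx family, msx1a had its highest values in both libraries of number 2, where msx2b was at -0.06 in BMS and -0.37 in vehicle and msx3 at -0.60 in BMS and 0.02 in vehicle.

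**Figure D3:**
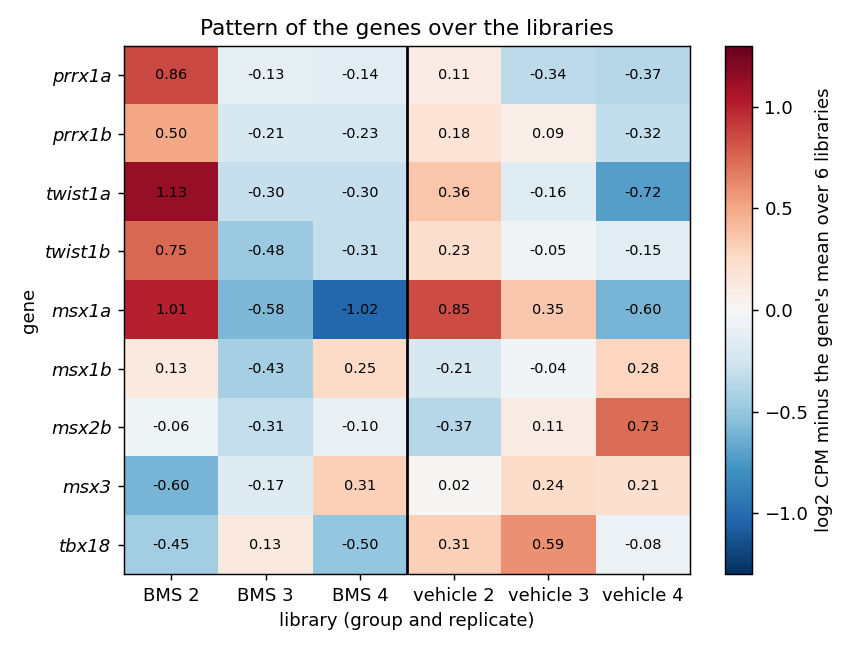
Log2 CPM of each gene minus its mean over the 6 libraries, for BMS replicates 2 to 4 (left of the line) and vehicle replicates 2 to 4 (right). Red is above and blue below the gene's mean. The prrx1, twist1 and msx1a rows are red in both replicate 2 libraries, and msx2b has its highest value in vehicle replicate 4 (0.73).

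The ratio of paralogue counts within a library does not depend on the scaling between libraries. The log2 ratio of prrx1a over prrx1b counts was 1.33, 1.05 and 1.07 in BMS, against 0.91, 0.54 and 0.92 in vehicle. All BMS values lay above all vehicle values, with means of 1.15 ± 0.16 in BMS and 0.79 ± 0.22 in vehicle (SD, n = 3 each) and a difference of 0.36. It ran from 0.24 without vehicle replicate 3 to 0.43 without vehicle replicate 4. A two-sided exact permutation test gave p = 0.1, the smallest that 3 against 3 libraries allow, and 0.3 after adjustment over the 3 paralogue pairs compared. Of 1801 pairs of names that differ by a final a or b, with both rows past the filter, 5.94% had groups that did not overlap in this ratio.

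The log2 ratio of twist1a over twist1b counts was 2.44, 2.22 and 2.05 in BMS, against 2.18, 1.94 and 1.48 in vehicle. The groups overlapped, and BMS was higher in 3 of 3 same-number pairs, by 0.26, 0.29 and 0.58. The difference of the means was 0.38, and it ran from 0.18 without vehicle replicate 4 to 0.53 without vehicle replicate 2. The exact permutation p was 0.2, and 0.3 after adjustment. The ratio of msx1a over msx1b was -5.94 ± 1.08 in BMS and -5.57 ± 0.99 in vehicle (exact permutation p = 0.7, adjusted 0.7). Within same-number pairs this ratio was lower in BMS in 3 of 3, by -0.18, -0.55 and -0.39, which the permutation test does not use. Ratios moved the same way in 3 of 3 pairs for 34.5% of the 1801 pairs of names. The 3 ratios were chosen after the counts were seen, and whether reads were split between paralogues by the authors' counting is not stated in the labels.

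**Figure D4:**
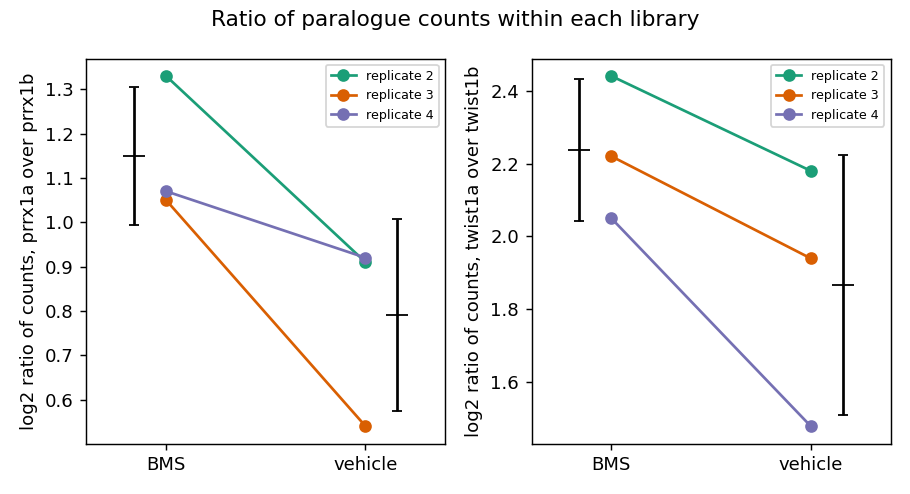
Log2 ratio of counts of prrx1a over prrx1b (left) and twist1a over twist1b (right) within each library, for BMS and vehicle. Points are libraries, lines join the same replicate number, and black marks give the mean and SD of 3 libraries; the axes do not start at 0. The prrx1 ratios are 1.05 or more in BMS and 0.92 or less in vehicle.

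Genes that work with these factors did not pass the test either. A fixed list held 9 E protein and Id genes, which encode the dimer partners of Twist proteins and the inhibitors of those partners. Of these, 8 were matched and tested and edgeR called 0, with 4 negative values and a median log2 fold change of -0.02. The 3 most abundant were id1 (0.26 ± 0.41), tcf3b (-0.33 ± 0.35) and id2a (0.09 ± 0.33). The list median pools both classes. The E protein genes tcf3a, tcf3b and tcf12 were at -0.15, -0.33 and -0.33. For the Id genes id1, id2a, id2b, id3 and id4 the values were 0.26, 0.09, 0.62, 0.27 and -0.12. Whether the classes differ was not tested. Of 27 Bmp ligand, receptor, inhibitor and feedback genes, 24 were tested and 0 called, with 13 negative values and a median of -0.10. The pseudoreceptor gene bambia, whose product damps Bmp and related signals, was at 228, 95.3 and 164 CPM in BMS, against 123, 162 and 320 CPM in vehicle. Its highest library was vehicle replicate 4, as for msx2b, while 10 of the 24 tested Bmp genes were highest in BMS replicate 2. A link between msx2b and Bmp signals was not tested. The log2 fold change of bambia was -0.31 ± 0.43. The values were -0.30 ± 0.32 for its paralogue bambib and -0.11 ± 0.33 for smad1, a signal transducer.

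Of 39 related transcription factor genes on a fixed list named for fin mesenchyme, 38 were matched and 22 were tested. Of these edgeR called 0, with 13 negative values and a median of -0.15. DESeq2 with the block called 1 of them, sox9a, a factor of cartilage and bone progenitors (-1.07 ± 0.24, adjusted p = 0.00624). The 3 most abundant did not pass: sox9b at 0.04 ± 0.35, sall1a at -0.28 ± 0.36 and sall1b at 0.42 ± 0.39 in the edgeR fit. Of 35 further genes of the fin mesenchyme and blastema, 34 were tested and 0 called by edgeR or by DESeq2 with the block. Negative values stood for 27 of the 34, beside 48.5% of all rows, with a median of -0.13 that stayed between -0.26 and -0.04 with any 1 library left out. With the block, edgeR gave 7 of the 34 lower and 1 higher at an unadjusted p under 0.05. Of all rows, 7.05% had such a p in either direction. The gene tnc was at -0.67 ± 0.18 by DESeq2 with the block and did not pass (adjusted p = 0.0514). The superficial and intermediate epidermis markers had positive values in 9 of 9, with a median of 0.35 (0.19 to 0.62 with 1 library left out) and 0 called. Their part in the values of the mesenchyme list was not tested. The most abundant genes of the mesenchyme list were the fibronectin gene fn1b (-0.01 ± 0.46), the periostin gene postnb (0.07 ± 0.31) and the actinodin gene and1 (-0.19 ± 0.60). Of the direct Hedgehog targets described here, edgeR called none of ptch1, gli1 and hhip (adjusted p = 1 for each), and DESeq2 with the block called hhip (-1.90 ± 0.35, adjusted p = 0.000112) and gli1 (-0.92 ± 0.23, adjusted p = 0.0245) lower, while ptch1 did not pass (adjusted p = 0.0542). Whether the transcription factor genes differ from the Hedgehog targets in their change was not tested.

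Other rows were ranked by Pearson's r, over the 6 libraries, with the mean log2 CPM of the 9 genes. That mean was 5.91, 5.27 and 5.32 in BMS, against 5.71, 5.63 and 5.43 in vehicle. Among 12463 other rows of at least 5 CPM on average, the 6 with the highest r were zmp:0000000662, pus10, actr5, nkrf, aaas and crip2, with r from 0.988 to 0.992. Their log2 fold changes ran from -0.16 to 0.01. The 9 genes did not share a pattern: r was 0.95 between prrx1a and twist1a and -0.89 between prrx1a and msx3. A row close to the mean is therefore not close to each gene. The 6 points share libraries, depth and scaling. A few rows of so many reach a high r over 6 points, so the list is a description.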

How the data were processed

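The authors deposited raw read counts, 1 row per gene name or copy of it, for 6 libraries, and a table of 11549 rows of normalized signal on a CPM-like scale, which holds 8 of the 10 genes and served only as a check. Per the submitters' processing notes, the build was GRCz11 and the tools were edgeR 4.3.2, HTSeq 0.6.1, Bowtie2 2.33 and TopHat2 2.1.1, in roles not stated. Where several rows had 1 name, the symbol stands for the most abundant row. The counts were tested with edgeR 4.0.16 (R 4.3.3, limma 3.58.1): TMM scaling, filterByExpr by group, robust quasi-likelihood F test, group as the only term, two-sided, Benjamini-Hochberg adjustment over 18541 rows, threshold 0.05. DESeq2 1.42.0, limma-voom, other scalings and filters, the replicate block and the omission of libraries were alternatives. The edgeR fits were run on simulated data. For the main fit these held no shared variation between libraries of the same number, so they do not test that case. The spread of the simulated counts was a fixed setting, not an estimate from these libraries, so the simulated runs do not measure power here. Members and lists were chosen with earlier results of these data known. Named beside the 10 genes are, per list, the 3 most abundant genes and those called, and the 6 rows closest to the mean of the tested genes. Further genes of a list or family were named after their values were seen. One gene of a fixed list is not reported here. Values of cell type marker lists are printed only where they touch a result.

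Pairing by replicate number was checked on deviations of libraries from their group means, correlated across rows: r was 0.63, 0.62 and 0.68 for numbers 2, 3 and 4, and -0.55 to -0.19 otherwise. The numbers were therefore taken as pairs in the same-number values and in the fits with the block. The main test and the permutation tests of the ratios ignore the pairing, as do the intervals given for each gene from the main fit. This pairing comes from the data, not from the labels. No library was a copy of another: between libraries of a group, chi-square divided by its degrees of freedom was 32.9 to 132.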

Additional observations from a re-analysis of the deposited data

How the results depend on the processing

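None of the 10 genes was called under the main settings or any alternative run in which it was tested. The gene hand2 was tested only in the run without a filter. The run limited to rows over 8 CPM in at least 2 libraries left out msx1a as well. The count of all genes changed was 0 by edgeR, 1 by DESeq2 and 72 by DESeq2 with the replicate block, and the blocked edgeR fit gave 9, 392 and 12 without both libraries of number 2, 3 and 4. The causes were not tested. The fit with the replicate block changed no call of these genes, with log2 fold changes of -0.54 for tbx18 and 0.40 for prrx1a. The sign of genes near 0 moved: twist1b was at -0.10 with total-count scaling, -0.04 by limma-voom, -0.02 in the edgeR fit with the block, -0.03 by DESeq2 with the block, -0.14 with total-count scaling and the block, and -0.27 in the blocked fit without both libraries of number 2, while prrx1b was at -0.08 with total-count scaling, with or without the block, and in that last blocked fit. In the blocked fit without both libraries of number 3, msx1b was at 0.13. With 1 library left out, values ran from -1.10 to 0.09 for msx1a, -0.15 to 0.16 for msx1b, -0.20 to 0.19 for prrx1b, -0.18 to 0.75 for twist1a and -0.40 to 0.29 for twist1b, and the msx1a over msx1b ratio from -0.91 to 0.17. The signs of msx2b, msx3, prrx1a and tbx18 held in all fits run. The median over all genes was -0.0963 with total-count scaling, and -0.133 when the block was added. That blocked fit and the omissions for the ratios were chosen after seeing the data. Depth limits hand2, and msx1a to a lesser degree.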
